A study of Mus musculus with 5 samples.

Results

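Sodium that escapes the proximal tubule is taken back by the thick ascending limb (TAL), the distal convoluted tubule (DCT), the connecting tubule (CNT) and the principal cells (PC) of the collecting duct. Here 10 genes of that distal sodium transport and of its control by aldosterone, the adrenal steroid that makes the kidney retain sodium, were followed through the aristolochic acid I (AAI) model. They were taken by symbol from the 32285 genes of the deposited matrices, and all 10 were found: the carriers Slc12a1 and Slc12a3, the channel subunits Scnn1a, Scnn1b and Scnn1g, the receptor Nr3c2, the enzyme Hsd11b2, and the kinases Wnk1, Wnk4 and Sgk1. The data are droplet single-cell RNA libraries of whole kidney from wild-type male mice of the C57BL/6 strain, 8 to 10 weeks old. The control library (n = 1, week 0) came from vehicle-treated mice. The AKI libraries (n = 2, week 2) followed AAI, a plant nephrotoxin, at 3 mg/kg into the peritoneum every 3 days, and the CKD libraries (n = 2, week 4) followed the same course and then a pause without injections. The labels do not say which mouse each library came from, so p-values measure the spread between these libraries, and the control, with 1 library, is assumed to vary as the others do.

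In the TAL, the cotransporter encoded by Slc12a1 (NKCC2) carries sodium, potassium and chloride in from the urine, and in the DCT the cotransporter encoded by Slc12a3 (NCC) carries sodium and chloride. WNK kinases switch both carriers on through phosphorylation, and Klhl3 is the adaptor that marks WNK kinases for degradation. Further along, aldosterone binds the mineralocorticoid receptor (Nr3c2), which raises the activity of the epithelial sodium channel (ENaC, subunits Scnn1a, Scnn1b and Scnn1g) partly through the kinase Sgk1, while Hsd11b2 inactivates glucocorticoids that would otherwise occupy the receptor.

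On the mouse genome GRCm39, Slc12a1 lies at chr2:124994425-125071922, Slc12a3 at chr8:95055829-95094170, Nr3c2 at chr8:77625576-77971863 and Hsd11b2 at chr8:106245369-106250620. Scnn1g (chr7:121333545-121367755) and Scnn1b (chr7:121463946-121517737) are neighbours on the plus strand, and Scnn1a lies at chr6:125297622-125321906. Wnk1, the member on the minus strand, lies at chr6:119900930-120015660, Wnk4 at chr11:101151246-101168235 and Sgk1 at chr10:21758083-21875802. The mineralocorticoid receptor binds DNA at inverted repeats of the letters AGAACA, so the 300 bases before the start of each gene's canonical transcript were searched on both strands for AGAACA or its complement TGTTCT. The 6 letters were found in the windows of 2 of the 10 members, against 17.6% of all 21751 windows. The full inverted repeat, AGAACA and TGTTCT with 3 bases of any kind between them, was in 0 of the members' windows and in 1 of all windows. The 2 matches are printed, since they are where members differ from the rest of the list, with the matching letters in capitals, 5′ to 3′ on the plus strand. They lie at chr7:121463819-121463848, 115 to 110 bases before the canonical start of Scnn1b, and at chr11:101151086-101151115, 292 to 287 bases before that of Wnk4. The canonical transcript of Wnk4 starts at 101151386, downstream of the gene's first annotated base, and both matches lie before the first base of their gene.
Scnn1b: catgagcaagaaTGTTCTgagaagaccaac
Wnk4: cgtcccagTGTTCTccaactcccccacccc
A match of this length is a description of the letters and not of binding.

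The 5 libraries held 10873 to 22034 barcodes and 90028670 to 121316769 UMIs (unique molecular identifiers, single captured RNA molecules). After filters, 53718 cells were left, 8496 in the control and 8783 to 16330 in each other library. The control stood apart: 61.3% of its barcodes passed the filters against 87.3 to 88.9% elsewhere. The 2 CKD libraries also differed from each other. The median cell held 2777 UMIs in CKD 1 and 5470 in CKD 2, with a median mitochondrial share of 7.55% and 3.41%. Cells were clustered without the 10 genes and classes were named from marker genes, so a class is called TAL-like, DCT-like, CNT-like or PC-like. TAL-like cells numbered 491, 221, 152, 714 and 81 in control, AKI 1, AKI 2, CKD 1 and CKD 2. DCT-like cells numbered 488, 169, 107, 190 and 56, CNT-like cells 275, 71, 79, 190 and 26, and PC-like cells 419, 127, 88, 308 and 32. Median UMIs per cell in CKD 1 and CKD 2 were 2395 and 5716 in TAL-like and 3091 and 23004.5 in PC-like cells. They were 2136.5 and 10771 in CNT-like cells, and 2165.5 and 1560.5 in DCT-like cells. The defining markers were present in each class and library: Umod was at 91.3 to 166 UMIs per 10000 in TAL-like cells, S100g at 167 to 466 in CNT-like cells and Aqp2 at 62.7 to 108 in PC-like cells. In DCT-like cells the markers were weaker outside the control, where the 7 DCT markers summed to 86.9 UMIs per 10000 against 13.4 to 24.3 in the other libraries. The 9 TAL markers summed to 60.8 in DCT-like cells of the control and 30.4 to 86.5 in the others, where they were above the cells' own DCT markers, and T-like cells were at 0.409 to 5.81. DCT-like cells of every library, the control among them, thus carried markers of the neighbouring segment as well. The part of this, and of the weaker DCT markers in the AAI libraries, in the differences of the members was not tested. The DCT-like class also joins a UMI-rich cluster of 363 cells with a UMI-poor cluster of 647 cells (median 1383 UMIs), and the TAL-like class a rich cluster of 897 with a poor cluster of 762 (median 1673). Throughout, a level is a gene's UMIs per 10000 UMIs of its class in a library, and levels are compared between classes and libraries, not between genes. T-like cells, which should lack most of these genes, are given beside as a measure of free RNA, since CellBender was not run. In T-like cells Wnk1 kept to 2.64 to 3.21 over the 5 libraries and Sgk1 to 0.430 to 0.688, where Slc12a1 ran from 0.0868 to 1.41. The part of the T cells' own RNA in Wnk1 and Sgk1 was not tested. For these kinases T-like cells are therefore not taken as a measure of free RNA alone. Cells marked as sharing a barcode with another library, by a rule with a UMI ratio of 20, numbered 92 in the control, 3 in AKI 2 and 2 in CKD 1. Of the 92 in the control, 2 were TAL-like, 6 CNT-like and 0 DCT-like or PC-like.

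**Figure D1:**
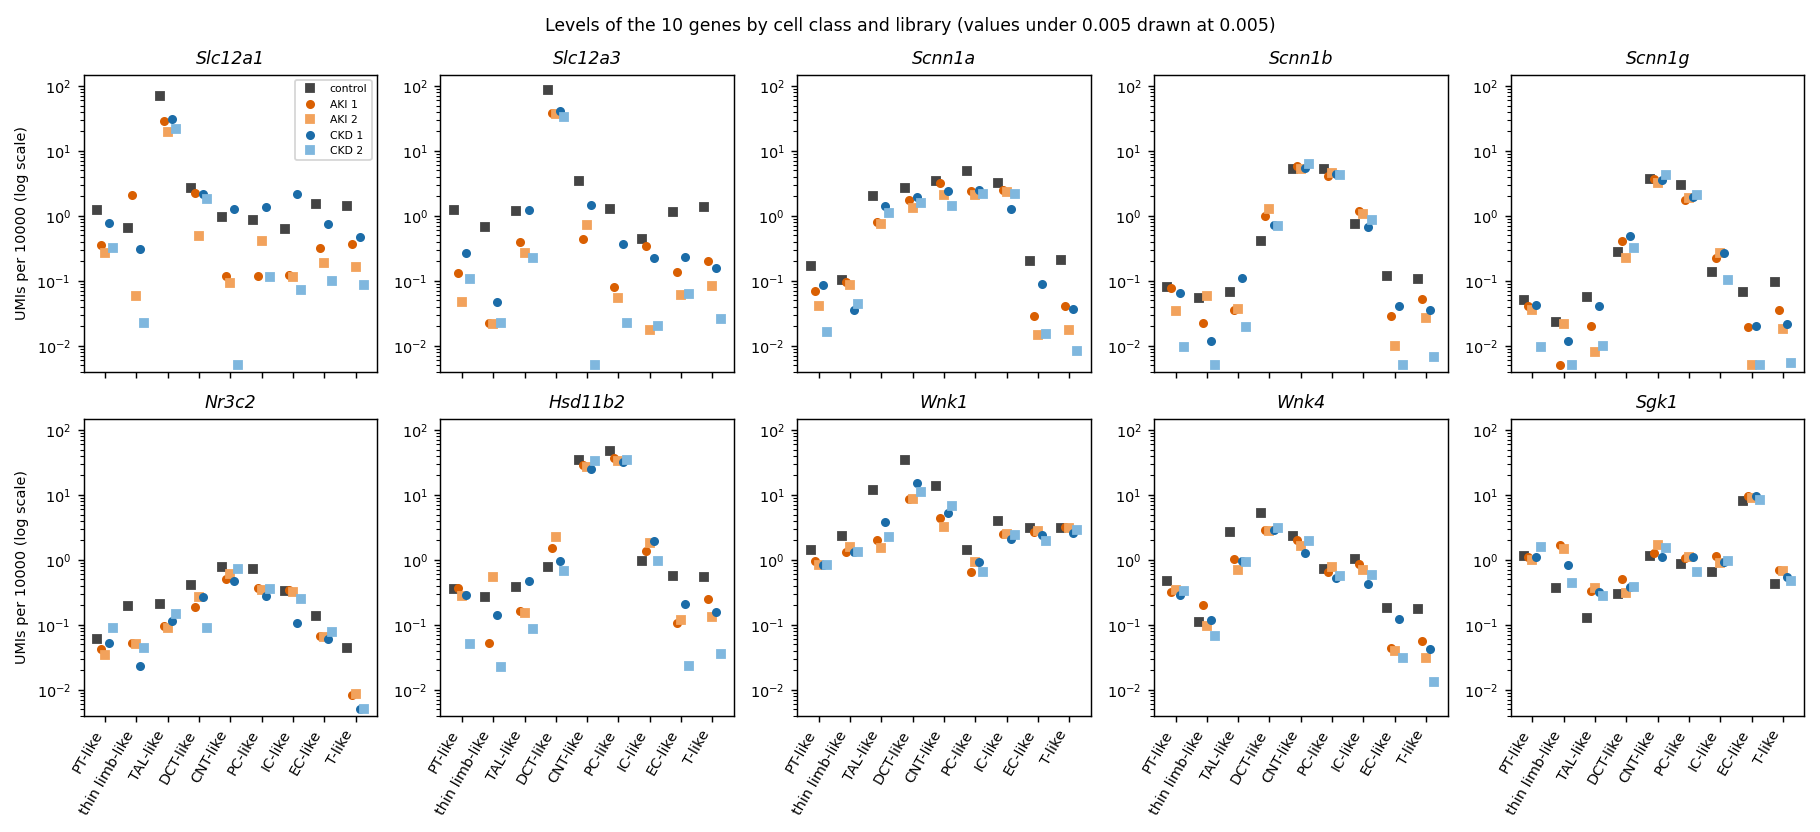
Levels of the 10 genes (UMIs per 10000, log axis) by cell class, with a point for each library (control, AKI 1, AKI 2, CKD 1, CKD 2). Slc12a1 stands highest in TAL-like, Slc12a3 in DCT-like, Scnn1b, Scnn1g and Hsd11b2 in CNT-like and PC-like cells, and Sgk1 in endothelial cells.

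Each carrier was highest in 1 segment. Slc12a1 in TAL-like cells was at 69.4 UMIs per 10000 in the control, 29.0 and 19.6 in the AKI libraries and 31.2 and 21.7 in the CKD libraries. The control stood far above every AAI library, and the AKI and CKD libraries overlapped. The next class in order was DCT-like at 0.489 to 2.70, below every TAL-like library, and T-like cells held 0.0868 to 1.41, the highest of these being the control. Slc12a3 in DCT-like cells was at 87.3 UMIs per 10000 in the control, 38.5 and 37.0 in AKI and 41.5 and 33.3 in CKD. Again the control was above all AAI libraries, which lay close together. CNT-like cells followed at 0 to 3.45 and TAL-like cells at 0.224 to 1.24, with T-like cells at 0.0255 to 1.35. In the control, CNT-like cells (3.45) were above T-like cells (1.35) and TAL-like cells (1.18) were not, and in CKD 1 TAL-like cells (1.24) were above T-like cells (0.159).

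The subunits of ENaC did not share 1 pattern along the nephron. Scnn1b was at 5.29, 5.78, 5.35, 5.50 and 6.33 UMIs per 10000 in CNT-like cells of control, AKI 1, AKI 2, CKD 1 and CKD 2, and at 5.30, 4.14, 4.56, 4.42 and 4.32 in PC-like cells. Both classes stood above every other class in all libraries, and they overlapped each other by a narrow margin. Scnn1g was at 3.72, 3.63, 3.25, 3.55 and 4.28 in CNT-like cells. In PC-like cells it was at 3.01, 1.77, 1.85, 1.94 and 2.12, lower than in every CNT-like library. Scnn1a, the subunit without which the channel conducts little, reached further upstream. Its mean over the 5 libraries was 2.81 UMIs per 10000 in PC-like, 2.53 in CNT-like, 2.30 in intercalated (IC)-like, 1.86 in DCT-like and 1.22 in TAL-like cells, and neighbours in this order overlapped. Each of these was above the 0.00836 to 0.207 of T-like cells.

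Of the aldosterone pathway's gatekeepers, Hsd11b2 was sharply placed and Nr3c2 was not. Hsd11b2 was at 47.3, 37.8, 33.0, 31.7 and 34.0 UMIs per 10000 in PC-like cells and 35.1, 28.7, 26.8, 25.3 and 32.9 in CNT-like cells of control, AKI 1, AKI 2, CKD 1 and CKD 2. The ranges of the 2 classes overlapped, though in each library PC-like cells were above CNT-like cells. IC-like cells, next in order, were at 0.949 to 1.95. Nr3c2 was low throughout: 0.479 to 0.781 in CNT-like, 0.283 to 0.713 in PC-like, 0.106 to 0.343 in IC-like, 0.0880 to 0.411 in DCT-like and 0.0888 to 0.207 in TAL-like cells. The ranges of neighbouring classes overlapped, though in each library CNT-like cells were above PC-like cells. T-like cells were at 0.00348 to 0.0441.

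The kinases differed in where they were highest. Wnk1 in DCT-like cells was at 34.3 UMIs per 10000 in the control, 8.80 and 8.53 in AKI and 15.4 and 11.1 in CKD. In CNT-like cells the same order of libraries gave 13.6, 4.38, 3.18, 5.34 and 6.84, and in TAL-like cells 11.9, 2.05, 1.55, 3.90 and 2.28. The control was the highest library in all 3 classes. T-like cells were at 2.64 to 3.21 in all 5 libraries, a level above that of AKI and CKD 2 TAL-like cells. Counts from the 3′ end of the transcript cannot separate full-length Wnk1 from its short kidney form, which lacks most of the kinase domain. Wnk4 was also highest in DCT-like cells, at 5.26, 2.92, 2.84, 2.86 and 3.11, above CNT-like cells at 1.27 to 2.36 in every library. Sgk1 was highest outside the nephron, at 8.13 to 9.71 UMIs per 10000 in endothelial cells. In the tubule it was at 1.10 to 1.68 in CNT-like, 0.647 to 1.10 in PC-like, 0.297 to 0.510 in DCT-like and 0.126 to 0.363 in TAL-like cells, with T-like cells at 0.430 to 0.688, above all TAL-like libraries.

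To compare the conditions, UMIs were summed per library and class and tested over all genes with edgeR, for TAL-like, DCT-like, and CNT-like with PC-like cells summed. AKI and CKD were each compared with the same control library, so their values are set side by side and are not independent of each other. A gene is called where the Benjamini-Hochberg adjusted p is at most 0.05. Counts for alternatives, or without a library, stand without the share of all genes called in the same fit. Leaving out a library also changes the estimated spread for every gene.

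In TAL-like cells, 5 of 10 members were called for AKI against control, 4 lower and 1 higher, where 9.12% of all genes tested were called (4.04% lower, 5.08% higher). For CKD against control 2 of 10 were called, 1 lower and 1 higher, against 2.44% of all genes (0.709% lower, 1.73% higher). Wnk1, with the levels given above, fell by 2.79 on the log2 scale in AKI (SE 0.39, edgeR adjusted p = 0.00749), 6.94-fold lower. In CKD it was 1.88 lower on that scale and was not called (adjusted p = 0.0503). Wnk4 was at 2.65 UMIs per 10000 in the control, 1.04 and 0.703 in AKI and 0.971 and 0.935 in CKD. The control was above the other libraries, which lay together. Wnk4 fell by 1.67 in AKI (SE 0.27, adjusted p = 0.0108) and by 1.44 in CKD (adjusted p = 0.0413). Scnn1a was at 2.04, 0.813, 0.743, 1.40 and 1.10 in control, AKI 1, AKI 2, CKD 1 and CKD 2. It fell by 1.46 in AKI (SE 0.26, adjusted p = 0.0148). Nr3c2, at 0.207 in the control and 0.0957 and 0.0888 in AKI, fell by 1.23 (SE 0.28, adjusted p = 0.0365), a call kept in 10 of 16 alternatives. Sgk1 went the other way, with 0.126 in the control, 0.337 and 0.363 in AKI and 0.322 and 0.282 in CKD, so that the control was the lowest library. It rose by 1.40 on the log2 scale in AKI (SE 0.25, adjusted p = 0.0189) and by 1.33 in CKD (adjusted p = 0.0489, a call kept in 5 of 15 alternatives). All these levels of Sgk1 were below those in T-like cells, which were at 0.430 in the control and 0.688 and 0.669 in AKI. Thin limb-like cells were at 0.366 in the control and 1.70 and 1.49 in AKI. Proximal tubule-like cells were at 1.14 in the control and 1.12 and 0.985 in AKI. A higher level of Sgk1 in AKI was thus not particular to TAL-like cells. For Slc12a1 the difference was −1.58 in AKI (SE 0.42, adjusted p = 0.0502) and −1.35 in CKD (adjusted p = 0.118), and neither was called. In AKI it was called in 10 of 16 alternatives and in CKD in 5 of 16, with the same sign in all. The number called for AKI was 2 without AKI 1, 1 without AKI 2, 8 without CKD 1 and 9 without CKD 2. With the mitochondrial limit at 15% it was 1. With free RNA subtracted it was 0, where Wnk1 in AKI is at 0 by construction, its levels being below those of T-like cells. For CKD it was 0 without AKI 1, 6 without CKD 1 and 4 without CKD 2.

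In DCT-like cells, 6 of 10 members were called for AKI against control, 4 lower and 2 higher, where 15.4% of all genes tested were called (6.39% lower, 9.03% higher). For CKD against control 2 of 10 were called, both lower, against 5.49% of all genes (1.02% lower, 4.47% higher). Slc12a3, whose product is the thiazide-sensitive carrier, fell by 1.31 on the log2 scale in AKI (SE 0.28, adjusted p = 0.00279), 2.48-fold, and by 1.21 in CKD (adjusted p = 0.0133). Wnk1 fell by 2.09 in AKI (SE 0.28, adjusted p = 5.4e-05), 4.25-fold, and by 1.36 in CKD (adjusted p = 0.00617). In both genes the control library was above all 4 others. Their CKD calls were kept in 10 and 12 of 15 alternatives, and neither was kept in cells with at least 3000 UMIs. Wnk4 fell by 0.97 in AKI (adjusted p = 0.00914) and Scnn1a, at 2.70 in the control against 1.75 and 1.30, by 0.92 (adjusted p = 0.0200). Scnn1b and Hsd11b2, whose levels peak further downstream, rose in AKI. Scnn1b in DCT-like cells was at 0.414 UMIs per 10000 in the control, 0.981 and 1.26 in AKI and 0.718 and 0.704 in CKD, against 0.0269 to 0.108 in T-like cells of the control and AKI. Its change in AKI was 1.31 on the log2 scale (SE 0.26, adjusted p = 0.00242). Hsd11b2 was at 0.774 in the control, 1.54 and 2.24 in AKI, and 0.965 and 0.674 in CKD, where it overlapped the control. Its change in AKI was 1.17 (SE 0.28, adjusted p = 0.00980). The 5 CNT markers, summed in the same cells, were at 86.4 in the control, 48.0 and 40.9 in AKI and 109 and 74.4 in CKD. The sum was lower in the AKI libraries than in the control, but 1 of the 5, Trpv5, was at 0.0734 in the control and 0.402 and 0.154 in AKI. In CNT-like cells the same sum was also lower in AKI, at 340 and 408 against 775 in the control. The part of CNT cells in these rises was not tested. The number called for AKI was 0 without AKI 1 and 1 (Wnk1) without AKI 2, 3 with DESeq2 and 2 with free RNA subtracted. For CKD it was 0 without AKI 1, 1 without AKI 2 and 4 without CKD 1.

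**Figure D2:**
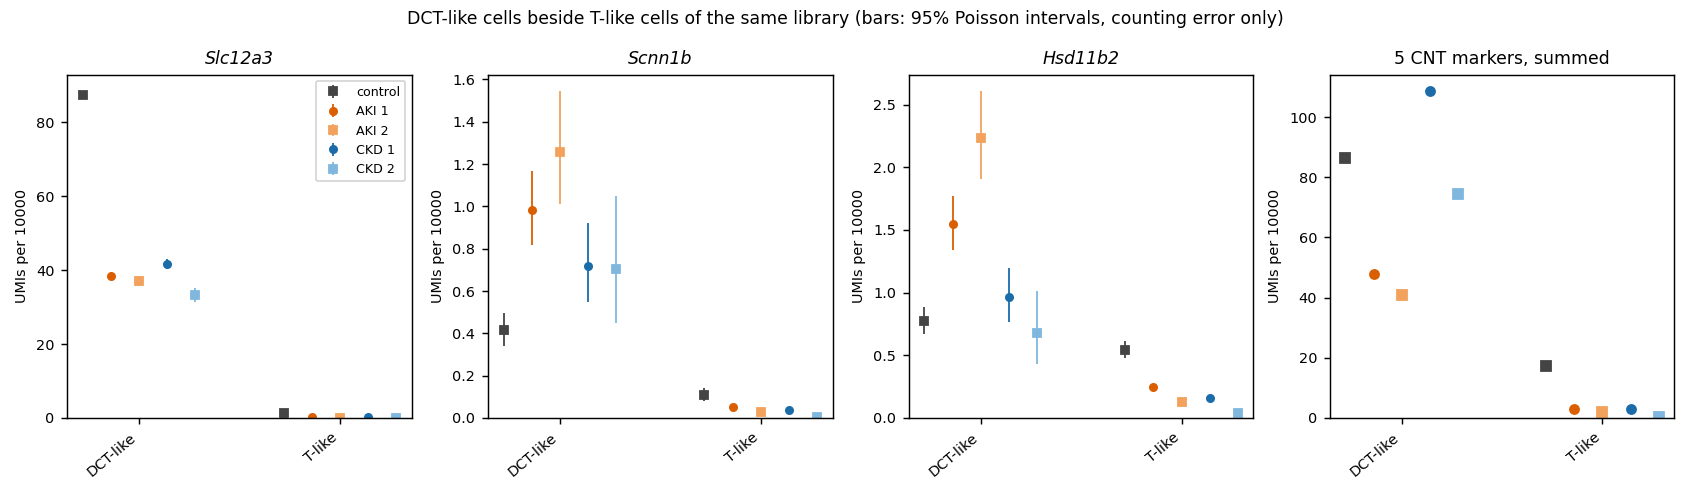
Levels in DCT-like cells beside T-like cells of the same library (UMIs per 10000; bars are 95% Poisson intervals that cover counting error only). Scnn1b and Hsd11b2 are highest in the AKI libraries, and the summed CNT markers are at 40.9 and 48.0 in AKI and 86.4 in the control, a sum that was also lower in AKI in CNT-like cells (340 and 408 against 775).

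In CNT-like and PC-like cells together, the ENaC subunits showed no called change, and 2 of 10 members were called in each comparison, both lower. Of all genes tested, 4.07% were called in AKI against control (1.01% lower, 3.06% higher) and 3.14% in CKD against control (0.449% lower, 2.69% higher). Wnk1 was at 5.85 UMIs per 10000 in the control, 1.49 and 1.58 in AKI and 2.31 and 2.19 in CKD, without overlap between any groups. It fell by 1.93 on the log2 scale in AKI (SE 0.17, adjusted p = 0.000816), 3.82-fold, and by 1.33 in CKD (adjusted p = 0.00605). The 5 CNT markers in these summed cells were at 296 in the control and 85.6 to 134 in the others, and the 9 PC markers at 123 and 113 to 156. The part of this in the difference of Wnk1, which is higher in CNT-like than in PC-like cells, was not tested, and the control was also the highest library within each of the 2 classes, at 13.6 against 3.18 to 6.84 in CNT-like and 1.45 against 0.647 to 0.937 in PC-like cells. Nr3c2 was at 0.737 in the control, 0.405 and 0.417 in AKI and 0.344 and 0.443 in CKD. It fell by 0.85 in AKI (adjusted p = 0.0431) and by 0.89 in CKD (adjusted p = 0.0499), with the AKI libraries inside the range of the CKD libraries, and each call was kept in 9 of 16 alternatives. Within CNT-like cells Nr3c2 was at 0.781 in the control, 0.517 and 0.602 in AKI and 0.479 and 0.718 in CKD. Within PC-like cells it was at 0.713, 0.373, 0.341, 0.283 and 0.352 in the same order. The part of the mix of the 2 classes in the difference of Nr3c2 was not tested. Scnn1b differed by −0.19 in AKI and −0.10 in CKD (SE 0.16 in both, adjusted p = 0.620 and 0.804). For Scnn1g the differences were −0.56 and −0.31 (SE 0.16 in both, adjusted p = 0.0974 and 0.359). Scnn1a differed by −0.90 and −0.91 (SE 0.22 in both, adjusted p = 0.0524 and 0.0593) and was not called, though it was called in 9 of 16 alternatives in each comparison, with the same sign in all 16. The counts were 6 and 5 without CKD 2, 6 and 4 without CKD 1, 1 and 1 without AKI 2, and for CKD 4 without AKI 1. With free RNA subtracted they were 0. Wnk1 is then at 0 by construction in the AKI and CKD libraries, where it was below the 2.64 to 3.21 of T-like cells.

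**Figure D3:**
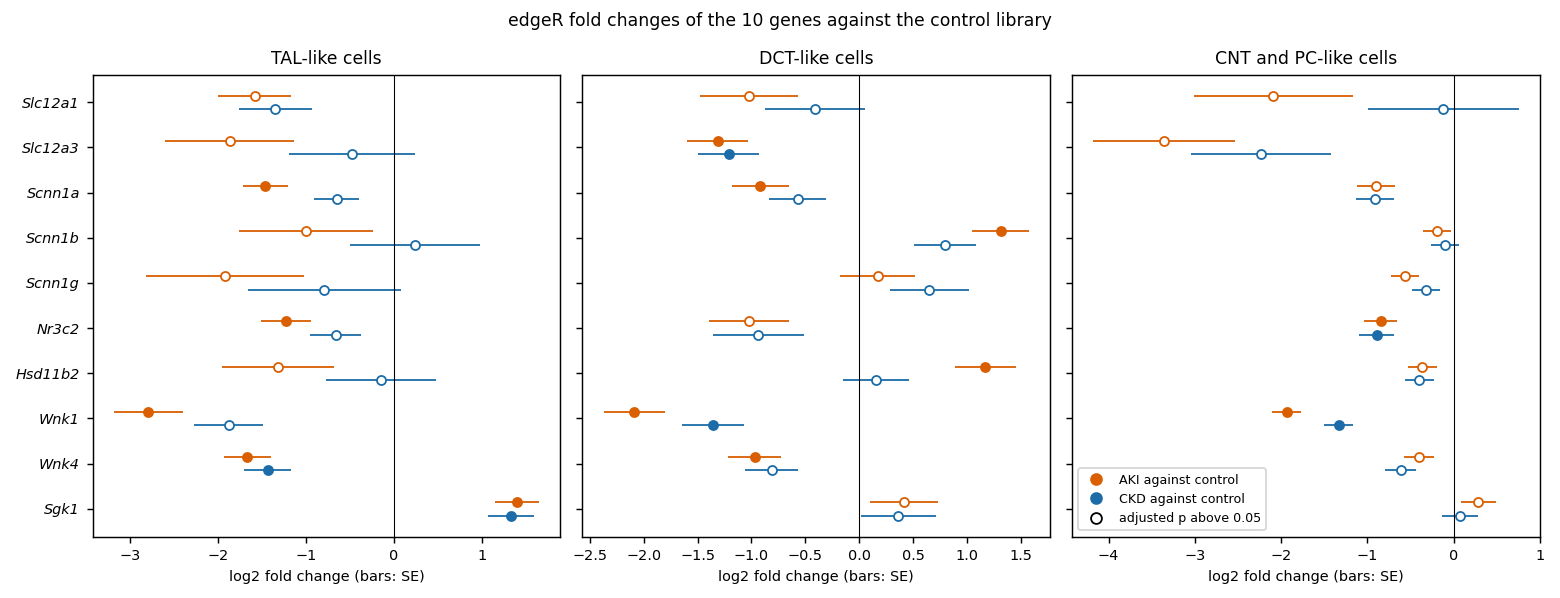
log2 fold changes of the 10 genes against the control library (edgeR; bars are SE) in TAL-like, DCT-like, and CNT-like with PC-like cells, for AKI and CKD. Wnk1 lies left of 0 in every panel, and Scnn1b and Hsd11b2 lie right of 0 in DCT-like cells in AKI.

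The clusters that make up the TAL-like and DCT-like classes were also looked at apart, as a description. In the UMI-rich TAL-like cluster (897 cells) Slc12a1 was at 72.5 UMIs per 10000 in the control, 30.0 and 20.2 in AKI and 38.9 and 22.7 in CKD. In the UMI-poor one (762 cells) it was at 17.4, 7.18, 4.64, 10.8 and 9.13 in the same order, so the control was the highest in both clusters. The poor cluster also held Slc12a3 at 2.38 to 10.4, against 0.0253 to 0.637 in the rich one. In the rich DCT-like cluster (363 cells) Wnk1 was at 33.6 in the control, 8.96 and 8.07 in AKI and 17.9 and 10.6 in CKD. In the poor one (647 cells) it was at 37.9, 7.85, 10.3, 7.08 and 13.98, again with the control above the rest. Slc12a3 in the rich DCT-like cluster was at 81.2 in the control, 38.8 and 37.0 in AKI and 47.5 and 36.5 in CKD. In the poor one it was at 119, 36.7, 37.0, 21.6 and 16.2 in the same order. There both CKD libraries were below both AKI libraries, unlike in the class as a whole. The higher levels of Scnn1b and Hsd11b2 in AKI were clearest in the rich cluster. There Scnn1b was at 0.232 in the control, 0.889 and 1.14 in AKI and 0.536 and 0.522 in CKD, and Hsd11b2 at 0.346, 1.38, 2.36, 0.337 and 0.244. Among the poor cells Scnn1b was at 1.36 in the control and 1.51 and 1.73 in AKI, and Hsd11b2 at 2.996 in the control and 2.49 and 1.73 in AKI, with the control above both AKI libraries for Hsd11b2. The rich cluster held 45 and 30 cells of the AKI libraries.

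Values that moved with the condition in all 3 classes are given here once. The 6 injured-tubule markers summed to 0.486 UMIs per 10000 in TAL-like cells of the control and 18.7 to 36.2 in the other libraries. In DCT-like cells the same sums were 0.895 and 6.86 to 29.5, and in CNT-like and PC-like cells 8.30 and 22.8 to 46.7. At least 4 of the 6 were above 0 in every class and library. Mitochondrial UMIs made up 22.4% of TAL-like UMIs in the control and 10.2 to 18.1% in the others. The part of both in the differences of the members was not tested. With 1 control library, a difference of the control condition cannot be told apart from a difference of that library.

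CKD was then compared with AKI, where the control library does not enter the difference. With edgeR, 0 of 10 members were called in TAL-like (0.0165% of all genes tested), in DCT-like (1.02%) and in CNT-like with PC-like cells (0.0432%). At an unadjusted p under 0.05 there were 2, 3 and 2 members, against 1168 of 12138, 1113 of 8924 and 766 of 11579 genes tested. DESeq2 called 0, 1 and 0 members. The largest difference in DCT-like cells was that of Hsd11b2, −1.01 on the log2 scale (SE 0.26, adjusted p = 0.0767). Wnk1 was higher in both CKD than in both AKI libraries in each class, by 0.91, 0.73 and 0.60 on the log2 scale (adjusted p = 0.445, 0.155 and 0.460). With 2 libraries against 2, an exact permutation test cannot go below a 2-sided p of 0.333. Without CKD 2 the numbers called were 5, 3 and 3, and without CKD 1 they were 0, 1 and 1.

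Whether a change differed between the 3 classes was tested in 1 fit over the classes. For CKD against AKI, 0 of 10 members passed with edgeR (0.142% of all genes tested). At an unadjusted p under 0.05 there were 3 members, against 948 of 11235 genes tested. DESeq2 called 0 of the 7 members it gave an adjusted p. For AKI against control, in a test chosen after seeing the data, Scnn1b, Hsd11b2 and Wnk4 passed (4.3% of all genes tested). For CKD against control, 0 passed with edgeR (0.86%).

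The other genes of the pathway came from 5 lists with 42 genes. In AKI against control, 1 was called higher and 7 lower of 39 tested in TAL-like cells, 2 higher and 7 lower of 37 in DCT-like cells, and 1 higher and 3 lower of 38 in CNT-like and PC-like cells. Of all genes tested, 5.08%, 9.03% and 3.06% were called higher in AKI in the 3 classes, and 4.04%, 6.39% and 1.01% lower. In CKD against control there were 0 higher and 2, 3 and 2 lower. Of all genes, 1.73%, 4.47% and 2.69% were higher and 0.709%, 1.02% and 0.449% lower in CKD. In CKD against AKI none was called with edgeR. The median difference over the members was −1.52, −0.94 and −0.70 on the log2 scale in AKI in the 3 classes. Over all genes tested it was within 0.01 of 0, which the scaling of the libraries (TMM) sets near 0.

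Klhl3, the adaptor through which WNK kinases are degraded, was called lower in each class and in both comparisons. In DCT-like cells it was at 6.77 UMIs per 10000 in the control, 1.09 and 1.19 in AKI and 2.08 and 1.26 in CKD, so the control stood above all other libraries. It fell by 2.68 on the log2 scale in AKI (SE 0.29, adjusted p = 5.7e-06) and by 1.95 in CKD (adjusted p = 0.000293). In TAL-like cells it fell by 3.10 and 1.80 (adjusted p = 0.00175 and 0.0161), and in CNT-like and PC-like cells by 1.51 in AKI (adjusted p = 0.00492), with a call in CKD too (adjusted p = 0.0108). The part of the mix of CNT-like and PC-like cells in this was not tested. Within CNT-like cells Klhl3 was at 1.22 in the control and 0.505 to 0.613 in the others, and within PC-like cells at 0.252 and 0.0530 to 0.125. Klhl3 and its substrate Wnk1 were thus both lower than the control.

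**Figure D4:**
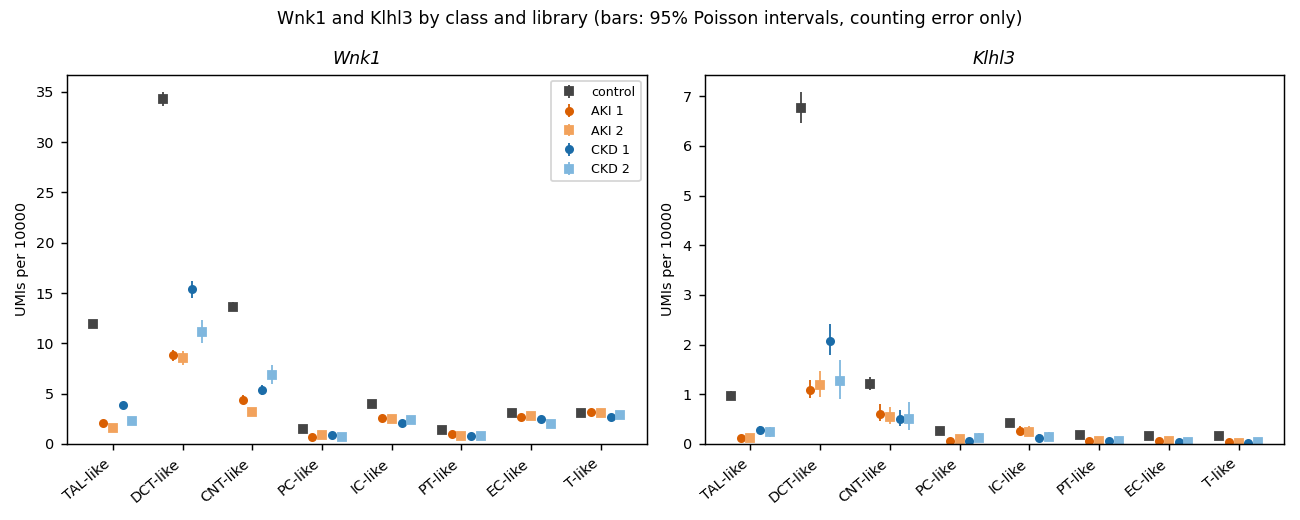
Wnk1 and Klhl3 (UMIs per 10000; bars are 95% Poisson intervals that cover counting error only) by class and library. In DCT-like cells the control library is at 34.3 for Wnk1 and 6.77 for Klhl3, and every other library lies lower.

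Among the basolateral and potassium partners, which return chloride to the blood and recycle or secrete potassium, no gene was called higher. Bsnd fell by 2.51 in TAL-like cells in AKI (adjusted p = 0.0105) and by 1.67 in CNT-like and PC-like cells (adjusted p = 0.0132). Within CNT-like cells Bsnd was at 0.788 in the control and 0.397 and 0.340 in AKI. Within PC-like cells it was at 0.0736, 0.0207 and 0.00541, with T-like cells of the control at 0.0727. The part of the mix of CNT-like and PC-like cells in this was not tested. The potassium channel Kcnj1 (ROMK) was at 8.33 in DCT-like cells of the control, 3.56 and 3.16 in AKI and 4.93 and 3.58 in CKD. It fell by 1.41 in AKI (adjusted p = 0.00124) and by 0.94 in CKD (adjusted p = 0.0476). Kcnj10, a basolateral potassium channel, fell by 1.21 and 1.15 in CNT-like and PC-like cells (adjusted p = 0.00903 and 0.0161). Of the other sodium carriers, the exchanger Slc9a2 fell by 2.53 and 2.07 in TAL-like cells (adjusted p = 0.0100 and 0.0442). Ppp1r1a, a phosphatase inhibitor listed with the WNK cascade, fell by 1.60 and 0.95 in DCT-like cells (adjusted p = 0.000284 and 0.0372). Errfi1, of the corticosteroid-induced list, rose by 0.83 in AKI in CNT-like and PC-like cells (adjusted p = 0.0401). It also rose in AKI in TAL-like cells, by 1.38 (adjusted p = 0.0215), and in DCT-like cells, by 1.29 (adjusted p = 0.00713), values given after they were seen. Its level in TAL-like cells was 0.531 in the control, 1.40 and 1.51 in AKI and 0.628 and 1.07 in CKD. In DCT-like cells it was 1.21 in the control, 3.31 and 3.02 in AKI and 1.60 and 2.93 in CKD. Slc26a4, a marker of IC, was called lower in DCT-like cells in AKI, where it was at 0.00772 and 0.0140 UMIs per 10000 against 0.128 in the control. T-like cells were at 0.00905 to 0.212, so the control's level was within the range of T-like cells.

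The genes whose levels ran most like those of the members were ranked by Pearson's r over 42 points, each an epithelial class in a library, among 13264 genes. The points share libraries and classes, so r is given as a description. For Slc12a1 these were Erbb4 (r = 0.901), Slc5a1 (0.894) and Pla1a (0.885). For Slc12a3 they were Sall3 (0.901), Uroc1 (0.893) and Trpm7 (0.893). Scnn1g ran with Scnn1b (0.963), Kcne1 (0.963) and Hsd11b2 (0.956), and Hsd11b2 with Scnn1g (0.956), Kif26b (0.953) and Kcne1 (0.953). Sgk1 ran less closely with any gene, its nearest being Adm (0.732), Depdc7 (0.685) and Ugdh (0.658).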

How the data were processed

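Per the labels, libraries were made from collagenase-digested kidney with 10x Genomics 3′ v2 kits, and Cell Ranger 7.2.0 with STAR and GRCm39 was used, whereas the headers of the AKI and CKD matrices name another Cell Ranger version and the control's gene list names mm10, so genes were matched by Ensembl ID. What the authors deposited for each library is a matrix of raw UMI counts, with genes in rows and barcodes in columns and no normalization. CellBender and scDblFinder of the study were not applied to these counts, and the rank test over cells was replaced by tests over libraries.

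A barcode was kept with 200 or more genes detected and a mitochondrial share of UMIs no higher than 30%, and the highest doublet scores were removed at 0.8% per 1000 cells. Counts were reduced to 40 principal components of 3000 variable genes, without the 10 members, corrected by library and clustered (Leiden, 15 neighbours, resolution 1.5). Epithelial cells were clustered again. A cluster was named where its marker score was at least 1.5 times the next and at least 3 markers were detected, unless its top 10 genes held more markers of another class than its own or its cells were UMI-poor without own markers there. Python 3.11.15, scikit-learn 1.9.0 and leidenalg 0.10.2 were used. UMIs summed per library and class were tested by quasi-likelihood in edgeR 4.0.16 under R 4.3.3 (TMM scaling, all 5 libraries sharing 1 spread, low-count filter, Benjamini-Hochberg adjustment over all genes), where every class and library had at least 20 cells. DESeq2 1.42.0 was the alternative for counts. Intervals are exact Poisson intervals at 95% and cover counting error only. Sequences and positions come from GRCm39 with GENCODE annotation.

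The members and lists were chosen with earlier results of these data known. Named were all members, at most 4 called genes per comparison of the other lists (largest change, no overlap between groups), and the 3 genes most alike for 5 members. One further gene that the rule would name is not reported here. On simulated data for AKI against control in DCT-like cells (8924 genes, a trend of spread over genes), 75 of 100 genes changed 4-fold and 28 of 100 changed 2-fold were recovered, with 5 false calls. With the spread estimated gene by gene, false calls reached 28.9% of calls for AKI against control in TAL-like cells (12138 genes).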

Additional observations from a re-analysis of the deposited data

Results flagged for a closer look

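In 3 members the difference between AKI and control differed between TAL-like, DCT-like and CNT-like with PC-like cells, by an edgeR F test over all genes that was chosen after seeing the data and that rests on the 1 control library. For Scnn1b (adjusted p = 0.00751) the difference was 2.28 higher on the log2 scale in DCT-like than in TAL-like cells. For Hsd11b2 (adjusted p = 0.0157) it was 2.46 higher. For Wnk4 (adjusted p = 0.0125) it was 0.69 higher in DCT-like and 1.29 higher in CNT-like with PC-like cells than in TAL-like cells. In TAL-like cells Scnn1b was at 0.0195 to 0.109 and Hsd11b2 at 0.0877 to 0.468 UMIs per 10000, against 0.00673 to 0.108 and 0.0362 to 0.542 in T-like cells.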

How the results depend on the processing

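Of the 19 called member values, 294 values were recomputed under 18 alternatives; 218 were called in the same direction, 76 were not called and 0 were called in the opposite direction. Of 1164 values for members not called, 134 became called in the same direction and 83 changed sign, of which 1 was called: Slc12a3 for CKD against AKI in CNT-like and PC-like cells, from −3.52 without CKD 1 to 1.92 without CKD 2. The causes below were not tested, and the counts stand without the share of all genes called under the same alternative. Members called are given for TAL-like, DCT-like, then CNT-like with PC-like cells, as CKD against AKI, AKI against control, CKD against control, with the main numbers 0, 5, 2, then 0, 6, 2, then 0, 2, 2. Leaving out 1 library gave 0 to 5, 1 to 9 and 0 to 6, then 0 to 3, 0 to 8 and 0 to 4, then 0 to 3, 1 to 6 and 1 to 5, and 0 to 3 for the differences of CKD against AKI between classes.

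No filter on low counts gave 4, 8 and 5 in TAL-like, 1 for CKD against AKI in DCT-like, and 3, 6 and 5 in CNT-like with PC-like cells, and 3 between classes. With free RNA subtracted, AKI and CKD against control gave 0 and 0 in TAL-like, 2 and 0 in DCT-like, and 0 and 0 in CNT-like with PC-like cells. Wnk1 is then at 0 by construction in TAL-like cells of AKI and CKD 2. The same holds in CNT-like with PC-like cells of every AKI and CKD library. In these, its level was below that of T-like cells, whose own Wnk1 was not told apart from free RNA. The 15% mitochondrial limit gave 1 and 0 in TAL-like cells, and no value in DCT-like cells, where no residual degrees of freedom were left. Keeping doublets gave 3 and 5 (CKD against AKI, CKD against control) in DCT-like, 1 and 4 (CKD against AKI, AKI against control) in CNT-like with PC-like cells and 1 between classes. No correction by library gave 2 in DCT-like (CKD against AKI), 0 in CNT-like with PC-like (CKD against control) and 1 between classes. Letting the members into the clustering gave 1 in DCT-like (CKD against AKI) and 1 and 1 against control in CNT-like with PC-like cells. Lower resolution gave 1 in TAL-like (CKD against control), 2 in DCT-like (CKD against AKI) and 4 in CNT-like with PC-like cells (AKI against control), and higher resolution 1 in TAL-like cells (CKD against control). DESeq2 gave 1 and 3 in DCT-like cells (CKD against AKI, AKI against control), and library sizes without TMM 1 (CKD against AKI). Cells with at least 3000 UMIs, a setting chosen after seeing the data, gave 1 in TAL-like and 1 in DCT-like (CKD against control) and 2 in DCT-like cells (CKD against AKI). The 1 in DCT-like cells for CKD against control was Scnn1b, called higher. Slc12a3 and Wnk1, the main calls of that comparison, were not called there.

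With the replicate number as a block over the 4 AKI and CKD libraries, 0 members were called in each class, as without the block. Deviations of same-numbered libraries from their group means correlated at 0.15, 0.034 and −0.019 over genes in the 3 classes. With so few libraries in each group, these values cannot decide whether the numbers pair the libraries.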

Other observations

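Some epithelial clusters that express the members were left unnamed and entered no class. One of 401 cells (median 1476 UMIs) scored as TAL with 8 markers detected, but 0 TAL markers were among its 10 leading genes, and Slc12a1 was at 66.8 UMIs per 10000 in its control cells, 49.4 and 29.7 in AKI and 54.7 and 48.6 in CKD. The control was again the highest, and the AKI and CKD libraries did not reach it. A cluster of 481 cells with a median of 27563 UMIs, scored highest for IC and next for CNT markers, held Hsd11b2 at 20.3 UMIs per 10000 over its cells.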
